A study of Mus musculus with 16 samples.

Results

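The genes described here are 41 regulators of chromatin in mouse neural crest stem cells: 9 genes of Polycomb repressive complex 2 (PRC2), 10 of Polycomb repressive complex 1 (PRC1), 9 subunits of the BAF remodelling complex, 4 histone deacetylases, 5 genes of DNA methylation and 4 other chromatin enzymes. They are a fixed list of names, measured among 18194 genes that had a probe set assigned to a single gene, and each gene was read from its probe set of highest mean log2 intensity over all arrays. The study hybridised total RNA of primary mouse neural crest cells to 16 Affymetrix arrays, 4 in each of 4 groups. The groups were NCSCs (not primed), Glia (primed to glia), Autonomic (primed to neurons) and Mesenchymal (primed to mesenchyme), and the question was which genes differ once the cells have met growth factors that direct their fate. All groups came from neural crest grown in a stem cell medium. The sources used here do not name the factors, their doses, the length of exposure, the mouse strain or the embryonic stage. Nothing in the labels says whether the 4 arrays of a group came from separate cultures or embryos. Each p-value therefore reflects only how much these arrays vary, which may be technical in part.

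Polycomb complexes mark and compact the chromatin of silent developmental genes: PRC2 methylates histone H3 through Ezh1 or Ezh2, and PRC1 ubiquitinates histone H2A through Ring1 or Rnf2 and reads the PRC2 mark through Cbx proteins. BAF uses the energy of ATP to move nucleosomes and counteracts Polycomb at many genes, while deacetylases remove acetyl groups from histones and DNA methyltransferases add methyl groups to CpG sites, which Tet enzymes oxidise. In neural crest these regulators are studied for their part in keeping cells multipotent and in letting them take on glial, neuronal or mesenchymal fates.

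Of the 10 neural crest markers, Sox10, a transcription factor of migrating crest, had mean log2 intensities of 7.85 in unprimed, 7.59 in the glia-primed, 7.22 in the neuron-primed and 8.84 in the mesenchyme-primed arrays. Ngfr, the receptor used to isolate crest stem cells, fell by 1.87 on the log2 scale in glia-primed and by 2.75 in neuron-primed arrays (limma adjusted p = 0.0479 and 0.00554), from a mean of 9.07 in unprimed arrays, and was 9.39 in mesenchyme-primed ones. The crest markers went different ways. Snai2 was higher in every primed group (5.77 to 6.33) than in unprimed arrays (4.72), and Sox9 was lower (6.18 to 6.74 against 7.31). The mean of all 10 was 7.14 in unprimed and 7.09, 6.61 and 7.31 in glia-, neuron- and mesenchyme-primed arrays. Markers of the target fates were mixed. S100b and Gfap, markers of mature glia, averaged 3.47 and 2.89 in the glia-primed arrays, and Phox2a and Th, markers of autonomic neurons, averaged 2.28 and 2.74 in the neuron-primed arrays, all below the median gene of an array (3.80 to 3.88). Others of the same lists lay above it. These included Fabp7 (7.22) and Pmp22 (6.19) in glia-primed, Stmn2 (6.01) and Elavl4 (5.46) in neuron-primed, and Tagln (8.67) and Col1a1 (8.07) in mesenchyme-primed arrays. Fabp7 and Pmp22 were higher in unprimed arrays (8.67 and 6.72). Stmn2 and Elavl4 were lower in unprimed arrays (5.59 and 5.22), but Elavl4 was highest in mesenchyme-primed ones (6.10). Tagln and Col1a1 were lower in unprimed arrays (7.66 and 4.84). Both were higher in glia-primed (10.025 and 8.67) and neuron-primed (9.56 and 9.10) than in mesenchyme-primed arrays. Pdgfra, Pdgfrb and Twist1 of the same list differed from unprimed arrays by -0.56, -0.32 and -0.55 in mesenchyme-primed ones. The other genes of that list were higher there than in unprimed arrays. The 5 markers of central neural tube averaged 6.55 in unprimed array 4, 5.64 in neuron-primed array 1 and 5.09 in mesenchyme-primed array 3, against 1.75 to 3.63 in the other arrays. The markers did not agree. Olig2 and Nkx2-2 were 4.79 and 5.49 in unprimed array 4. They were only 1.75 and 1.88 in neuron-primed array 1 and 1.51 and 1.44 in mesenchyme-primed array 3. Pax6 was also high in neuron-primed array 4 (8.86). Markers of blood and endothelium had group means of 1.96 to 2.67. Those of epithelium had group means of 3.53 to 4.10. Among them Krt18 was 6.31 in unprimed and 6.81 in neuron-primed arrays, while Epcam and Cdh1 were at most 3.02 and 1.94 in any group. The 10 markers of mesenchyme and smooth muscle averaged 5.02 in unprimed arrays and 6.44, 6.20 and 5.79 in glia-, neuron- and mesenchyme-primed arrays. The 3′ to 5′ log2 ratio of the Gapdh control probe sets, a measure of RNA integrity and labelling, averaged 2.35 in unprimed and 2.85 to 2.96 in primed arrays, and the X-inactivation RNA Xist averaged 9.30 in unprimed and 3.63 in glia-primed arrays. The part of these differences in the results below was not tested beyond the fits with the Gapdh ratio or Xist as a covariate and the fits with arrays left out.

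None of the 41 regulators differed between groups at an adjusted p under 0.05 (limma's moderated test on log2 intensities, Benjamini-Hochberg over all 18194 genes). The share of all genes called was 0.511% for glia-primed against unprimed arrays, 0.434% for neuron-primed, 0.022% for mesenchyme-primed, 0.445% for the mean of the primed groups, 0.011% for glia- against neuron-primed, 0.225% for glia- against mesenchyme-primed and 0.346% for neuron- against mesenchyme-primed. A moderated F test over the 4 groups called 0.599% of genes and 0 regulators, and 3 regulators (Tet1, Smarcc1 and Chd7) had an unadjusted F p under 0.05, where 10% of all genes did. With so few genes called on the whole array, a count of 0 among 41 says little of the list. At an unadjusted p under 0.05, 5 regulators were lower in glia-primed arrays and 1 was higher, where 5.91% and 4% of all genes were. In neuron-primed arrays 3 were lower and 0 higher, against 5.51% and 4.29% of all genes. In mesenchyme-primed arrays 3 were lower and 1 higher, against 4.56% and 3.14%. For the mean of the primed groups 5 were lower and 1 higher, against 6.54% and 3.62%. Tet1 and Smarcc1 were among the lower ones in all of these comparisons, which share the same unprimed arrays. In bulk RNA, fewer cells of one kind and less RNA per cell cannot be told apart.

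Promoter sequence was compared because DNA methylation and Polycomb both act on CpG-rich DNA. RefSeq promoters (build GRCm38.p6, from 250 bases before to 50 after the start of transcription) were found for 36 of the 41 regulators. A CpG-rich promoter, with an observed over expected CpG ratio of at least 0.6 and a GC content of at least 50%, was present in 32 of 36 (88.9%), against 54.2% of 14369 promoters of genes on the array. The median number of CpG sites was 30. An E2F motif, searched on both strands as TTCCCGC or TTGGCGC, lay in 7 of 36 (19.4%), against 10.3% of all promoters. The NRF1 motif GCATGCG lay in 3 (8.33% against 5.33%) and the YY1 motif AAGATGG in 2 (5.56% against 6.63%). The 100 bases before the start site are shown for the regulators with the smallest p over the groups, Tet1 and Smarcc1, and for Uhrf1, whose printed bases hold the first E2F form. They lie at chr10:62887325-62887424 (minus strand), chr9:110131924-110132023 (plus strand) and chr17:56303237-56303336 (plus strand). Each is written 5′ to 3′ with CpG sites in capitals.
Tet1: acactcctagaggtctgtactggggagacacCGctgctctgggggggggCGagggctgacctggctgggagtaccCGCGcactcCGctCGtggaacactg
Smarcc1: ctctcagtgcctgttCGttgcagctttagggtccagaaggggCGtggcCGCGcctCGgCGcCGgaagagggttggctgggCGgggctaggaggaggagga
Uhrf1: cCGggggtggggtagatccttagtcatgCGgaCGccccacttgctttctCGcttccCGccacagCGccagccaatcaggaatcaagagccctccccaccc
The Tet1 and Smarcc1 stretches hold 6 and 8 CpG sites, and the whole Uhrf1 promoter, with 12 CpG sites and a ratio of 0.472, was not CpG-rich by this rule. No methylation or binding was measured at these sites here.

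**Figure D1:**
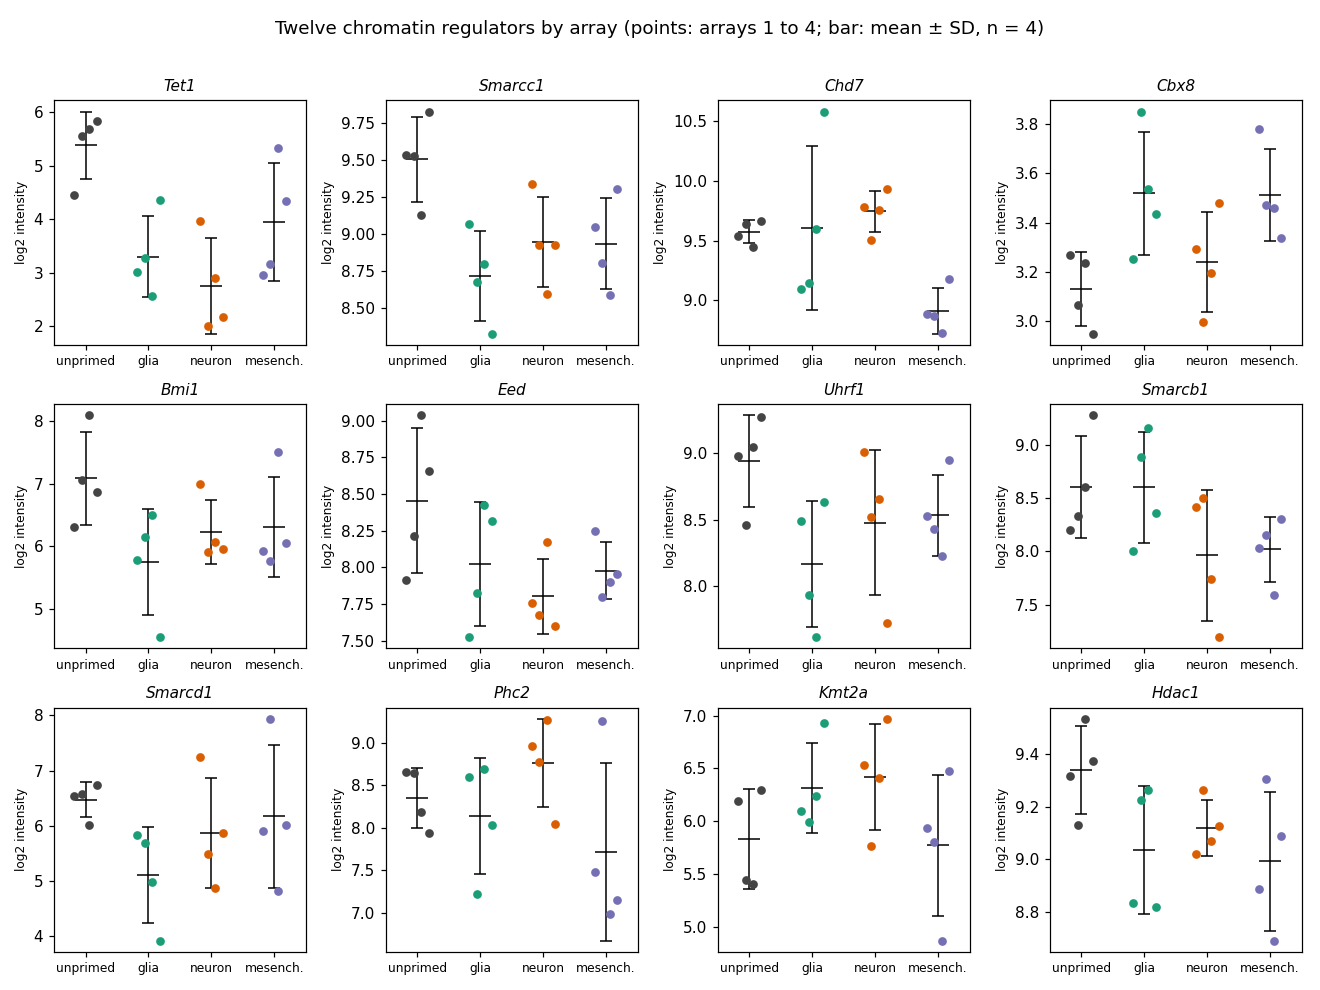
Log2 intensity of 12 chromatin regulators in each array (points, arrays 1 to 4 from left to right) of the unprimed, glia-primed, neuron-primed and mesenchyme-primed groups, with the mean ± SD (n = 4) as bars and an axis for each gene. Tet1 lies between 4.45 and 5.83 in unprimed arrays and between 2.01 and 3.96 in neuron-primed arrays, while most other genes overlap between groups.

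Tet1, which oxidises methylated cytosine as the first step of its removal, had the smallest adjusted p among the regulators, and its promoter, printed with those of Smarcc1 and Uhrf1, was just inside the CpG-rich rule with a ratio of 0.607. Its log2 intensity was 4.45, 5.56, 5.68 and 5.83 in unprimed arrays 1 to 4. It was 3.01, 3.28, 2.56 and 4.35 in the glia-primed arrays, 3.96, 2.01, 2.90 and 2.17 in the neuron-primed arrays, and 2.95, 3.17, 5.33 and 4.33 in the mesenchyme-primed arrays. The unprimed arrays lay above all glia-primed and all neuron-primed arrays, but mesenchyme-primed array 3 lay within the unprimed range. Neuron-primed arrays were lower than unprimed ones by a log2 difference of -2.62 (95% interval -3.84 to -1.40, SE 0.57), a 6.15-fold difference that did not pass the threshold (limma adjusted p = 0.0692). For glia-primed arrays the difference was -2.08 (-3.30 to -0.86), with an adjusted p of 0.163 by limma. For mesenchyme-primed arrays it was -1.43 (-2.65 to -0.22), with an adjusted p of 0.557 by limma.

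The 3 arrays with a high mean of the neural tube markers were also those of highest Tet1 intensity in the unprimed, neuron-primed and mesenchyme-primed groups (5.83, 3.96 and 5.33). Without those 3 arrays, a choice made after seeing the data, the neuron-primed difference was -2.87 and passed the threshold (limma adjusted p = 0.0323). It also passed without neuron-primed array 1 alone (0.0189 by limma), without mesenchyme-primed array 3 alone (0.0415) and with arrays weighted by their quality (0.0433). Mesenchyme-primed array 3 enters this comparison only through the shared spread, and the difference stayed at -2.62 without it. No other of the 30 alternatives passed, and over all of them the adjusted p ran from 0.0189 to 0.262. Tet1 has 4 single-gene probe sets on the array, and the values above come from one of them. All 4 were dim on average, at 3.85 for the kept probe set and 3.81, 3.05 and 2.63 for the others. In that order, the others gave differences of -0.37, -0.23 and -0.60 for neuron-primed arrays and -0.50, -0.11 and -0.55 for glia-primed arrays. For mesenchyme-primed arrays their differences had the opposite sign to the kept one (0.61, 0.09 and 0.23). With the mean of the 4 probe sets, the neuron-primed difference shrank to -0.96. The larger Tet1 difference therefore stands on a single probe set.

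Uhrf1, which brings Dnmt1 to newly copied DNA and has the printed promoter with an E2F motif, was measured at 8.98, 8.46, 9.05 and 9.27 in unprimed arrays and 8.49, 7.93, 7.62 and 8.63 in glia-primed arrays. In the neuron-primed arrays it was 9.01, 8.52, 8.66 and 7.72, and in the mesenchyme-primed arrays 8.53, 8.43, 8.22 and 8.95. Each primed group overlapped the unprimed range. The differences from unprimed arrays were -0.77 (95% interval -1.41 to -0.14) for glia-primed, -0.46 for neuron-primed and -0.41 for mesenchyme-primed arrays, with adjusted p of 0.368, 0.667 and 0.798 by limma. Both of its probe sets were lower in all primed groups.

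Among the DNA methyltransferases, the maintenance enzyme Dnmt1 averaged 10.29 ± 0.11 (SD, n = 4) in unprimed, 9.99 ± 0.25 in the glia-primed, 10.28 ± 0.19 in the neuron-primed and 10.12 ± 0.25 in the mesenchyme-primed arrays. Dnmt3a, a de novo methyltransferase, averaged 8.25 ± 0.21, 8.08 ± 0.53, 8.13 ± 0.38 and 7.75 ± 0.85 in the same order. Its partner Dnmt3b averaged 6.33 ± 0.62, 5.48 ± 0.52, 6.43 ± 0.68 and 5.37 ± 1.61. Other probe sets of both genes read differently. The second of 5 Dnmt3a probe sets gave differences of -0.82, -1.06 and -1.17, with all primed arrays (5.74 to 7.35) below all unprimed ones (7.46 to 8.09), and the third gave -1.42 in neuron-primed arrays. The second Dnmt3b probe set gave -1.16 in neuron-primed arrays, where the kept one gave 0.10. No difference in these genes passed the threshold, and on the kept probe sets the SDs of Dnmt3a and Dnmt3b in mesenchyme-primed arrays were the widest of the 4 groups, with array 3 lowest (6.77 and 3.05). The mean of the 5 DNA methylation genes in each array was 7.78 to 7.91 in unprimed arrays, 6.92 to 7.14 in the glia-primed, 6.97 to 7.58 in the neuron-primed and 6.65 to 7.57 in the mesenchyme-primed arrays, so all 12 primed arrays lay below the unprimed range. Without Tet1 the mean of the other 4 genes was 8.33 to 8.61 in unprimed arrays, and 2 neuron-primed arrays and 1 mesenchyme-primed array reached that range, while all glia-primed arrays (7.67 to 8.17) stayed below it. All 5 genes were below 0 in the glia and mesenchyme comparisons and 4 of 5 in the neuron comparison, with medians of -0.77, -0.50 and -0.12. The separation of all primed arrays from the unprimed range was not particular to these 5 genes. The mean of 22 further genes of deacetylases and their complexes was 6.04 to 6.21 in unprimed and 5.65 to 5.98 in primed arrays.

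Genes of DNA replication are given beside these because Dnmt1 and Uhrf1 act at replicating DNA. The 19 measured genes of a proliferation list averaged 8.86 ± 0.11 in unprimed arrays and 8.30 ± 0.18, 8.26 ± 0.21 and 8.47 ± 0.20 in glia-, neuron- and mesenchyme-primed arrays. Gins2, a component of the replicative helicase, fell by 1.41, 1.37 and 1.81 on the log2 scale in glia-, neuron- and mesenchyme-primed arrays (limma adjusted p = 0.0364, 0.043 and 0.0465). Tk1, thymidine kinase, fell by 1.96 in neuron-primed arrays (limma adjusted p = 0.0333). No other gene of this list passed the threshold against unprimed arrays. In mesenchyme-primed arrays Mki67, Mcm2, Mcm3 and Tyms differed by 0.07, 0.05, 0.04 and 0.19, and the rest of the list was below 0. The part of proliferation in the values of Uhrf1 and Dnmt1 was not tested.

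Of the 9 PRC2 genes, 4 were below 0 in the glia comparison, 8 in the neuron comparison and 6 in the mesenchyme comparison, with median differences of 0.01, -0.22 and -0.12. Eed, the subunit that binds the methylated histone and is needed for PRC2 activity, was the lowest by p. Its log2 intensity was 7.92, 8.21, 9.04 and 8.66 in unprimed arrays and 7.76, 7.68, 8.17 and 7.60 in neuron-primed arrays. It was 7.53, 7.83, 8.43 and 8.31 in glia-primed and 8.25, 7.80, 7.90 and 7.96 in mesenchyme-primed arrays. Of the neuron-primed arrays, 3 lay below the lowest unprimed array and array 3 lay above it. The difference was -0.65 (95% interval -1.20 to -0.11) for neuron-primed, -0.43 for glia-primed and -0.48 for mesenchyme-primed arrays, with adjusted p of 0.399, 0.628 and 0.698 by limma.

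The catalytic subunit Ezh2 differed little from group to group, averaging 8.42 ± 0.38 in unprimed, 8.17 ± 0.19 in the glia-primed, 8.15 ± 0.31 in the neuron-primed and 8.40 ± 0.30 in the mesenchyme-primed arrays. Its alternative Ezh1 averaged 3.54 ± 1.28 in unprimed arrays, where array 4 stood apart at 5.45, and 2.77 ± 0.37, 2.93 ± 0.08 and 3.07 ± 0.53 in the primed groups. Suz12, the scaffold of PRC2, averaged 7.95 ± 0.27, 8.30 ± 0.32, 7.31 ± 0.76 and 7.75 ± 1.19 over unprimed, glia-, neuron- and mesenchyme-primed arrays. The histone-binding subunit Rbbp4 averaged 12.20 ± 0.12, 12.06 ± 0.05, 12.04 ± 0.19 and 12.08 ± 0.05 on its brightest probe set. A dimmer Rbbp4 probe set gave differences of -1.36, -1.50 and -1.75 for glia-, neuron- and mesenchyme-primed arrays, with all primed arrays (4.39 to 6.30) below all unprimed ones (6.48 to 7.28), and did not pass the threshold for the mean of the primed groups when each probe set was tested by itself (limma adjusted p = 0.0642). Rbbp7, the only X-linked gene of the list, averaged 10.03 ± 0.18, 10.08 ± 0.28, 9.80 ± 0.24 and 10.07 ± 0.14. The accessory factors that steer PRC2 to its sites did not separate the groups either. Jarid2 averaged 7.36 ± 0.14, 7.36 ± 1.04, 7.29 ± 0.62 and 7.23 ± 0.83. Mtf2 averaged 8.12 ± 0.71, 8.37 ± 0.26, 7.97 ± 0.35 and 8.48 ± 0.38. Phf19 averaged 3.03 ± 0.37, 3.45 ± 0.48, 3.29 ± 0.32 and 3.40 ± 0.37.

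In PRC1, 8 of 10 genes were below 0 in the glia comparison, 5 in the neuron comparison and 6 in the mesenchyme comparison. Bmi1 stimulates the ubiquitin ligase and is known for keeping stem cells dividing. It measured 6.32, 7.06, 8.09 and 6.87 in unprimed arrays and 5.78, 6.15, 6.50 and 4.55 in glia-primed arrays. In neuron-primed arrays it was 6.99, 5.91, 6.07 and 5.96, and in mesenchyme-primed arrays 5.92, 5.77, 7.50 and 6.06. In both of the latter groups 3 arrays lay below the unprimed range and the array with a high mean of the neural tube markers lay within it. The glia-primed difference was -1.34 (95% interval -2.38 to -0.29, limma adjusted p = 0.338), and those of neuron- and mesenchyme-primed arrays were -0.85 and -0.77 (0.623 and 0.758 by limma). Its second probe set was also lower in every primed group.

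Cbx8, a reader of the PRC2 mark, was the only regulator higher in 2 primed groups at an unadjusted p under 0.05. It measured 3.27, 3.06, 3.24 and 2.95 in unprimed arrays, 3.25, 3.85, 3.54 and 3.43 in glia-primed arrays, 3.29, 2.99, 3.19 and 3.48 in neuron-primed arrays and 3.78, 3.47, 3.46 and 3.34 in mesenchyme-primed arrays. The mesenchyme-primed arrays all lay above the unprimed ones, but in 15 of 16 arrays the value was below that of the array's median gene. Its differences were 0.39, 0.11 and 0.38 for glia-, neuron- and mesenchyme-primed arrays, with adjusted p of 0.449, 0.898 and 0.614 by limma. Phc2, a polymerising subunit, measured 8.65, 8.64, 8.19 and 7.93 in unprimed, 8.60, 7.22, 8.69 and 8.03 in the glia-primed, 8.96, 8.78, 9.27 and 8.05 in the neuron-primed and 7.47, 9.26, 6.99 and 7.15 in mesenchyme-primed arrays. Mesenchyme-primed array 2 stood high beside the other 3, and neuron- and mesenchyme-primed arrays overlapped. They differed by 1.05 (95% interval 0.06 to 2.04, limma adjusted p = 0.568).

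The ligases themselves were variable. Ring1 averaged 6.68 ± 1.63 in unprimed, 5.28 ± 0.92 in the glia-primed, 5.75 ± 1.25 in the neuron-primed and 6.01 ± 0.77 in the mesenchyme-primed arrays, and its counterpart Rnf2 averaged 8.50 ± 0.25, 8.03 ± 1.12, 8.31 ± 1.21 and 8.42 ± 0.40. Pcgf2 and Pcgf6 are Bmi1 relatives that define other forms of PRC1. Pcgf2 averaged 8.18 ± 0.22, 7.73 ± 0.65, 8.0 ± 0.99 and 8.19 ± 0.07, and Pcgf6 averaged 6.86 ± 0.74, 7.14 ± 1.02, 7.17 ± 0.98 and 7.76 ± 1.10. Cbx2, a reader that neighbours Cbx8 on chromosome 11, averaged 5.73 ± 0.56, 5.32 ± 0.30, 6.11 ± 0.62 and 5.99 ± 1.00. Its second probe set, of nearly the same mean intensity (5.77 against 5.79), gave differences of -0.72, -0.98 and -0.89, with all primed arrays (4.63 to 6.15) below all unprimed ones (6.25 to 6.62). The kept probe set had the opposite sign in neuron- and mesenchyme-primed arrays (0.38 and 0.26). Cbx7, another reader, averaged 4.59 ± 0.76, 4.42 ± 0.14, 4.11 ± 0.13 and 4.21 ± 0.24. All glia-primed Cbx7 arrays (4.29 to 4.60) lay above all neuron-primed ones (3.97 to 4.28), by a margin far smaller than the spread of the unprimed arrays, and 1.36% of all genes separated these groups in this direction. Phc1, a second polymerising subunit, averaged 7.52 ± 0.38, 7.32 ± 0.50, 7.64 ± 0.48 and 7.41 ± 0.86.

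Smarcc1, a core scaffold of BAF, was lower in every primed group at an unadjusted p under 0.05. It measured 9.53, 9.53, 9.13 and 9.82 in unprimed arrays and 9.07, 8.67, 8.79 and 8.33 in glia-primed arrays. In the neuron-primed arrays it was 9.34, 8.92, 8.60 and 8.92, and in the mesenchyme-primed arrays 9.04, 8.80, 8.59 and 9.30. All glia-primed arrays were below all unprimed ones, and only array 1 of the neuron-primed and array 4 of the mesenchyme-primed group reached the unprimed range. The glia-primed difference was -0.79 (95% interval -1.26 to -0.31), 1.73-fold, with an adjusted p of 0.172 by limma. The neuron- and mesenchyme-primed differences were -0.56 and -0.57, with adjusted p of 0.405 and 0.546 by limma. Its other probe sets at comparable brightness were lower as well, by -0.84 and -0.36 for glia-primed, -0.47 and -0.48 for neuron-primed and -1.01 and -0.48 for mesenchyme-primed arrays, whereas its dimmest probe set differed by 0.06, 0.00 and 0.38.

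Of the 9 BAF subunits, 8, 7 and 6 were below 0 in the glia, neuron and mesenchyme comparisons. Smarcd1, a subunit that links BAF to transcription factors, measured 6.55, 6.58, 6.01 and 6.74 in unprimed arrays and 5.84, 5.69, 4.99 and 3.92 in glia-primed arrays. It was 7.24, 5.49, 4.88 and 5.88 in the neuron-primed and 5.91, 7.94, 4.82 and 6.01 in mesenchyme-primed arrays. The glia-primed arrays all lay below the unprimed ones, while the other primed groups spanned their range. The glia-primed difference was -1.36 with an interval of -2.68 to -0.04 (limma adjusted p = 0.488). Counting Tet1 and Smarcc1, 3 of 41 regulators had glia-primed arrays wholly below the unprimed ones, where 4.16% of all genes did, and 0 lay wholly above, against 3.02%. For neuron-primed arrays Tet1 was the 1 regulator wholly below and 0 were wholly above, against 3.24% and 2.29%.

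Smarcb1, the core subunit lost in rhabdoid tumours, measured 8.20, 8.34, 8.61 and 9.28 in unprimed, 8.0, 8.89, 9.16 and 8.36 in the glia-primed, 8.42, 8.50, 7.74 and 7.19 in the neuron-primed and 8.04, 8.15, 7.59 and 8.30 in mesenchyme-primed arrays. All groups overlapped. Its differences from unprimed arrays were 0.00, -0.64 and -0.59 for glia-, neuron- and mesenchyme-primed arrays (limma adjusted p = 0.999, 0.576 and 0.726). The main ATPase Smarca4 averaged 9.18 ± 0.33, 9.09 ± 0.22, 9.19 ± 0.46 and 9.36 ± 0.23 over unprimed, glia-, neuron- and mesenchyme-primed arrays. The DNA-bending subunit Smarce1 averaged 11.33 ± 0.05, 11.24 ± 0.08, 11.28 ± 0.28 and 11.19 ± 0.18. Smarcc2, which can replace Smarcc1, averaged 6.56 ± 0.71, 6.51 ± 0.15, 6.0 ± 1.56 and 6.59 ± 1.14. The alternative large subunits Arid1a (8.17 ± 0.17, 7.88 ± 0.38, 8.13 ± 0.67 and 7.48 ± 0.81) and Arid1b (6.92 ± 0.25, 6.48 ± 0.75, 6.76 ± 0.62 and 6.68 ± 0.30) overlapped in all groups.

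The choice of probe set bears on every value given here. Of the 33 regulators with more than 1 probe set, 5 (Bmi1, Phc2, Phf19, Rbbp7 and Uhrf1) had the same sign over all their probe sets in all 3 comparisons with unprimed arrays. In a count made after seeing the data, 3 of the 104 probe sets of the regulators had all 12 primed arrays below all unprimed ones, against 0.36% of all probe sets, and 0 had them above, against 0.177%. These were the probe sets of Rbbp4, Cbx2 and Dnmt3a described with those genes, none of them the kept one. For Smarca2, the ATPase that alternates with Smarca4, the probe sets also differed. Its brighter probe set averaged 5.03 ± 0.25 in unprimed, 5.26 ± 0.29 in the glia-primed, 5.07 ± 0.29 in the neuron-primed and 5.48 ± 1.30 in the mesenchyme-primed arrays. Its second probe set measured 5.67, 5.71, 6.30 and 4.71 in unprimed arrays and 2.36, 4.54, 4.45 and 3.87 in glia-primed arrays. In neuron-primed arrays it was 4.35, 2.96, 2.56 and 3.99, and in mesenchyme-primed arrays 5.71, 6.52, 6.63 and 5.98. The glia- and neuron-primed arrays thus lay below all unprimed and all mesenchyme-primed ones on this second probe set. When each of the 34958 single-gene probe sets was tested by itself, an analysis added after seeing the data, this was the only one of the regulators' 104 probe sets called in any comparison: neuron- against mesenchyme-primed arrays differed by -2.75 (SE 0.51, limma adjusted p = 0.0417), where 0.229% of all probe sets were called. Its difference from unprimed arrays was -2.13 in the neuron-primed and -1.79 in glia-primed arrays (limma adjusted p = 0.115 and 0.198). The brighter probe set differed by -0.41 between neuron- and mesenchyme-primed arrays (limma adjusted p = 0.899).

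**Figure D2:**
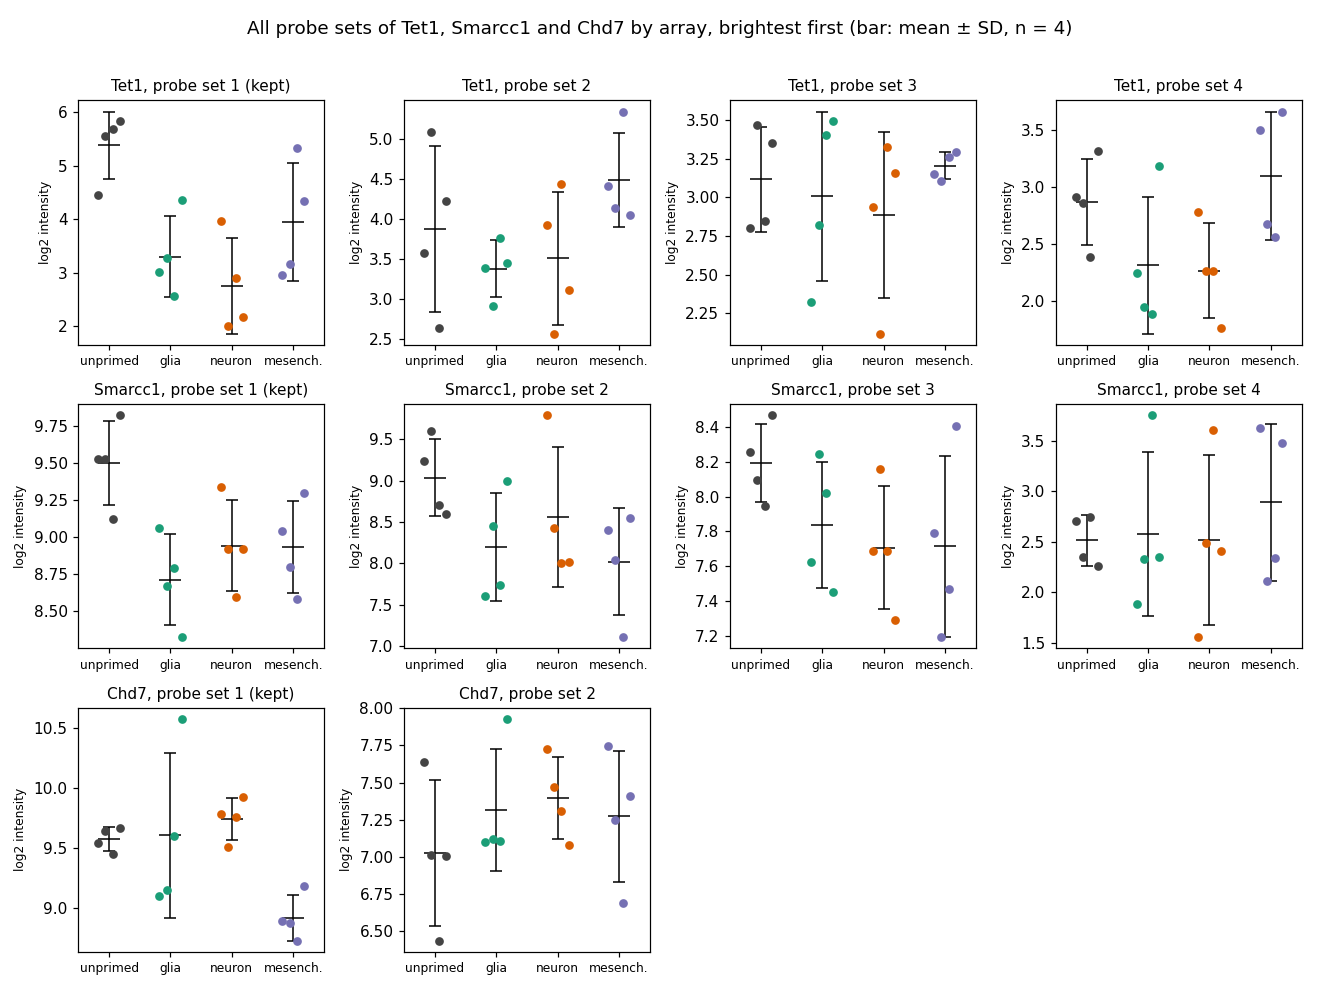
Log2 intensity of every single-gene probe set of Tet1, Smarcc1 and Chd7 in each array, ordered from the brightest, with the mean ± SD (n = 4) of each group as bars and a separate axis for each panel. The lower values of Tet1 in primed arrays appear in its brightest probe set, those of Smarcc1 in its 3 brighter probe sets, and the low mesenchyme-primed values of Chd7 in its brightest probe set.

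Hdac1, a deacetylase of several repressor complexes, measured 9.32, 9.13, 9.53 and 9.37 in unprimed arrays, 8.84, 9.22, 9.26 and 8.82 in glia-primed arrays, 9.02, 9.26, 9.07 and 9.13 in neuron-primed arrays and 8.89, 9.30, 8.69 and 9.09 in mesenchyme-primed arrays. Every primed group had arrays below the lowest unprimed one and arrays above it. Its differences were -0.30, -0.22 and -0.35, with adjusted p of 0.6, 0.74 and 0.66 by limma. Hdac2, its close relative, averaged 11.04 ± 0.19, 11.16 ± 0.23, 11.02 ± 0.34 and 11.29 ± 0.17 over unprimed, glia-, neuron- and mesenchyme-primed arrays. Hdac3, the enzyme of the nuclear corepressor complexes, averaged 7.19 ± 0.27, 7.55 ± 0.39, 6.89 ± 0.44 and 7.09 ± 0.70. The NAD-dependent deacetylase Sirt1 averaged 4.57 ± 0.33, 4.57 ± 0.67, 4.07 ± 0.81 and 4.88 ± 1.02.

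Chd7, the remodeller mutated in CHARGE syndrome, a disorder of neural crest derivatives, was the only regulator whose mesenchyme-primed arrays lay wholly below both the unprimed and the neuron-primed ones on the kept probe set. It measured 9.54, 9.64, 9.45 and 9.67 in unprimed arrays and 8.89, 8.87, 8.72 and 9.18 in mesenchyme-primed arrays. In neuron-primed arrays it was 9.78, 9.51, 9.76 and 9.93, and in glia-primed arrays 9.09, 9.15, 9.60 and 10.58. The mesenchyme-primed arrays lay below every unprimed and every neuron-primed array, and the glia-primed group was spread widely by array 4. Mesenchyme-primed arrays differed from unprimed ones by -0.66 (95% interval -1.22 to -0.10, limma adjusted p = 0.557). Neuron-primed arrays differed from mesenchyme-primed ones by 0.83 (0.27 to 1.39, limma adjusted p = 0.316). Without glia-primed array 4, which enters this fit only through the shared spread, the latter passed the threshold (limma adjusted p = 0.0443). The second Chd7 probe set did not repeat the pattern: it differed by 0.25 between mesenchyme-primed and unprimed arrays and by 0.12 between neuron- and mesenchyme-primed arrays. Chd7 was the 1 regulator with mesenchyme-primed arrays wholly below unprimed ones and Cbx8 the 1 wholly above, where 3.29% and 2.41% of all genes were.

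No regulator differed between primed groups at the threshold on its kept probe set, and the counts at an unadjusted p were close to or below the shares of all genes. No regulator had an unadjusted p under 0.05 for glia- against neuron-primed arrays, where 3.39% of all genes were lower and 2.85% higher, and apart from Cbx7 none separated these arrays, against 1.6% of genes wholly lower. Chd7 was the 1 regulator at that p for glia- against mesenchyme-primed arrays, higher by 0.69 (95% interval 0.13 to 1.25, limma adjusted p = 0.581), where 3.4% of all genes were higher and 3.66% lower. These arrays overlapped for every regulator, while 2.46% of all genes were wholly lower and 2.09% wholly higher. For neuron- against mesenchyme-primed arrays Phc2 and Chd7 were the 2 regulators with an unadjusted p under 0.05, both higher, against 4.35% of all genes higher and 3.88% lower. Chd7 was the only regulator whose arrays did not overlap there, where 2.09% of all genes were wholly higher and 2.08% wholly lower.

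Kmt2a, a methyltransferase of the Trithorax group that opposes Polycomb, measured 6.19, 5.45, 5.40 and 6.29 in unprimed, 6.09, 5.99, 6.24 and 6.93 in the glia-primed, 6.53, 5.76, 6.41 and 6.97 in the neuron-primed and 5.94, 5.80, 4.87 and 6.47 in mesenchyme-primed arrays. All groups overlapped, and its differences were 0.48, 0.58 and -0.06 (limma adjusted p = 0.728, 0.648 and 0.98). Chd4, the ATPase of the NuRD complex, averaged 8.43 ± 0.20, 8.32 ± 1.24, 9.24 ± 0.87 and 8.39 ± 0.63 over unprimed, glia-, neuron- and mesenchyme-primed arrays. The histone demethylase Kdm1a averaged 9.66 ± 0.32, 9.87 ± 0.38, 9.78 ± 0.19 and 9.89 ± 0.11.

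**Figure D3:**
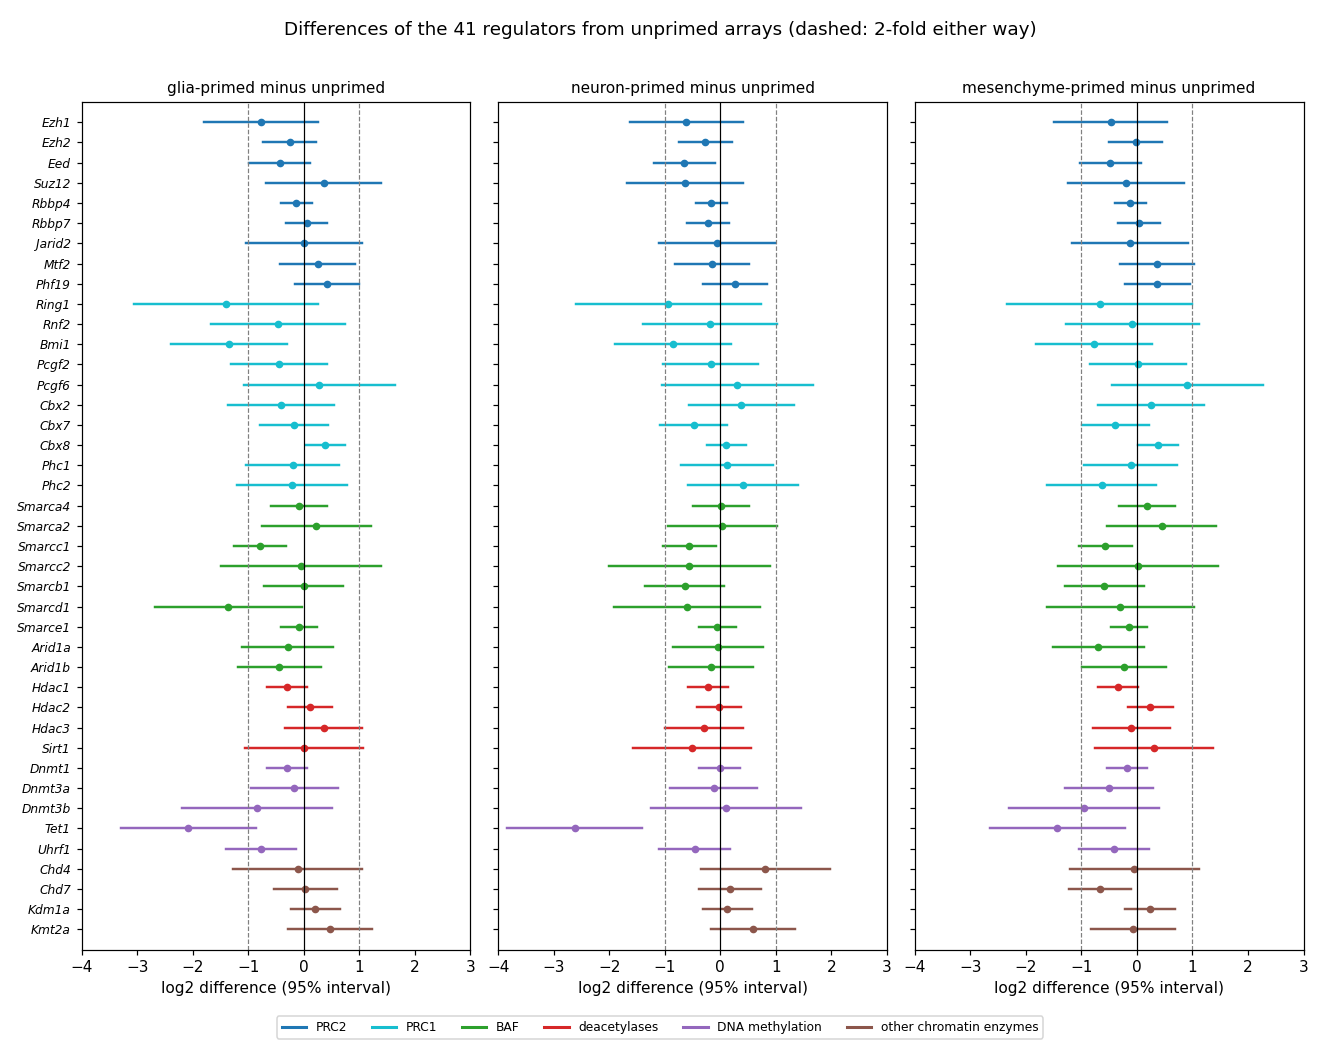
Log2 difference of each of the 41 regulators between primed and unprimed arrays (points) with its 95% interval from the moderated fit (lines, not adjusted for the number of genes), coloured by role, with dashed lines at a 2-fold difference either way. The Tet1 intervals lie below 0 in all panels, and those of Rbbp4 and Smarce1 are the narrowest.

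The intervals show what 4 arrays a group could resolve. For 11 of 41 regulators (26.8%) the 95% intervals of all 3 comparisons with unprimed arrays lay inside a 2-fold difference, compared with 44.5% of all genes and 19% of the genes brighter than the median gene. These were Rbbp4, Rbbp7, Ezh2 and Phf19 of PRC2, Cbx8 of PRC1, Smarca4 and Smarce1 of BAF, Hdac1, Hdac2, Dnmt1 and Kdm1a. These bounds hold for the kept probe set of each gene and not for its other probe sets, as the dimmer Rbbp4 probe set shows. Phf19 and Cbx8 lay below the median gene in 14 and 15 of 16 arrays. Differences of dim probe sets are compressed, so their narrow intervals bound the intensity and not the change in RNA. The bound farthest from 0 was 1.36-fold for Rbbp4, 1.38-fold for Smarce1, 1.68-fold for Ezh2 and 1.59-fold for Dnmt1. The kept probe sets of Rbbp4 and Dnmt1 are among 12 of the 41 whose names mark possible matches to further transcripts. At the other end, the bound reached 14.3-fold for Tet1 and 8.36-fold for Ring1, so for those genes large differences remained within the error.

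Across the list, 28 of 41 regulators were below 0 in each of the glia, neuron and mesenchyme comparisons, where 50.8%, 49.5% and 50.8% of all genes were. Their median differences were -0.17, -0.16 and -0.12, against -0.01, 0.00 and -0.01 over all genes. Most regulators are bright on this array, 37 of 41 having a mean above that of the median gene. Of the genes brighter than the median gene, a comparison added after seeing the data, 58.7%, 56.6% and 59.1% were below 0, with medians of -0.11, -0.09 and -0.11. After cyclic loess scaling, which evens out differences that depend on brightness, 22, 21 and 21 regulators were below 0, with medians of -0.02, -0.02 and -0.01. Centring arrays on housekeeping genes moved all genes alike, to medians of 0.24 and 0.27 in glia- and neuron-primed arrays, and the list to 0.073 and 0.11, so that the list median minus that of all genes was -0.16 in both comparisons, as without centring. The distance of the list from all genes shrank with cyclic loess scaling. Centring shifts every gene of an array by the same amount, so it could not change that distance and is no check of it.

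**Figure D4:**
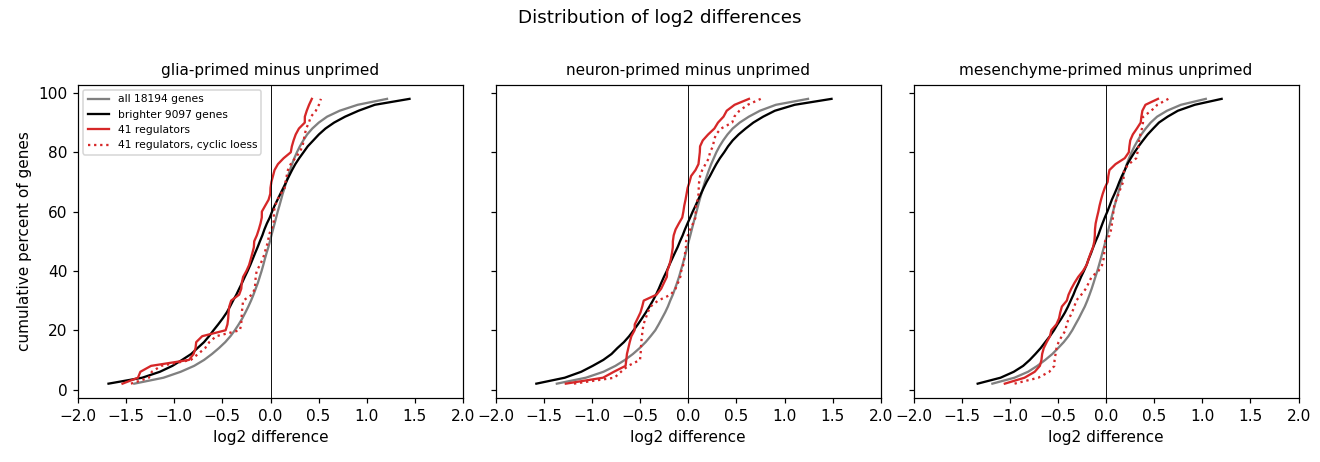
Cumulative percent of genes by log2 difference between primed and unprimed arrays for all 18194 genes, the brighter 9097 genes and the 41 regulators before and after cyclic loess scaling. The regulators lie left of all genes before scaling (medians -0.17, -0.16 and -0.12) and close to 0 at their median after it (-0.02, -0.02 and -0.01).

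Another 80 genes of the same complexes were listed, of which 74 had a single-gene probe set. None was called in any comparison, where 0.011% to 0.511% of all genes were. At an unadjusted p under 0.05, 4 were higher and 7 lower in glia-primed arrays, against 4% and 5.91% of all genes. In neuron-primed arrays 4 were higher and 6 lower, against 4.29% and 5.51%. In mesenchyme-primed arrays 5 were higher and 6 lower, against 3.14% and 4.56%. The 13 Polycomb genes among them had medians of 0.20, 0.29 and 0.34. The 22 genes of deacetylases and their complexes had medians of -0.20, -0.30 and -0.18. Those of the 6 DNA methylation genes were -0.32, -0.34 and -0.13, and those of the 17 BAF and PBAF genes 0.01, -0.05 and -0.04. The 16 other chromatin enzymes had medians of -0.35 in glia-primed and -0.33 in neuron-primed arrays. Named after their values were seen, Ss18, a BAF subunit, differed by 0.60 in glia-primed arrays (limma adjusted p = 0.0808), and Sin3a, the scaffold of a deacetylase complex, differed by -2.29 in neuron-primed arrays (limma adjusted p = 0.103).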

How the data were processed

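Total RNA of 16 samples (2 ug each, per the labels) was labelled with Affymetrix reagents and hybridised to mouse arrays. The authors deposited a table of linear intensities processed with RMA, per the submitters' processing notes, with no version given there. RMA corrects background, normalizes arrays together and summarises probes, which compresses differences of dim probe sets. Values were taken as log2 with no offset. Of 45101 probe sets, 34958 had 1 gene symbol, 932 had several and 9211 were not in the annotation; 99.4% of the former matched a RefSeq gene by Entrez identifier. The probe set of highest mean was kept for each gene. A group-means model was fitted with limma 3.58.1 in R 4.3.3 over all arrays (12 residual degrees of freedom), two-sided, with Benjamini-Hochberg adjustment over all 18194 genes, and tested on simulated data. The members and lists were chosen with earlier results of these data known. Values in every array are given for regulators called in a comparison or whose primed and unprimed arrays do not overlap, filled up to 12 by smallest F p-value. Arrays correlated at 0.896 to 0.949 within groups, and no pair was identical. No pairing by replicate number was visible in the values, and the labels do not say whether same-numbered arrays share a culture. Alternatives covered scaling, offset, probe set choice, filtering, covariates, weights and leaving out each array. Depth does not apply to arrays; their number limits the precision.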

Additional observations from a re-analysis of the deposited data

Results flagged for a closer look

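Among 164 sets of 4 arrays (41 regulators in 4 groups), 8 held an array far from the other 3 by Dixon's test, or 4.88%, close to the 1 in 20 that chance gives. Ezh1 was 5.45 in unprimed array 4 and 2.81 to 3.09 in the others. Bmi1 was 6.99 in neuron-primed array 1 (others 5.91 to 6.07) and 7.50 in mesenchyme-primed array 3 (others 5.77 to 6.06). These are the 3 arrays with a high mean of the neural tube markers, and the part of those markers was not tested. Smarce1 was 10.87 in neuron-primed array 1, below the 11.38 to 11.48 of the others. In glia-primed array 4, Phc1 was 6.57 (others 7.57 to 7.58) and Smarcc2 was 6.29 (others 6.56 to 6.61). Sirt1 was 5.57 in glia-primed array 1 (others 4.15 to 4.36). Hdac2 was 11.54 in mesenchyme-primed array 4 (others 11.20 to 11.21).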

How the results depend on the processing

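Of 469 counts and medians recomputed under the alternatives, 459 kept their value or moved by less than the spread between arrays. This says little of stability. The counts all start at 0, and the spread used (0.24) is larger than every median difference of the list. A median could therefore change sign within it: that of the mean of the primed groups ran from -0.20 to 0.04 over the alternatives. Tet1 was the 1 regulator called for neuron-primed against unprimed arrays with array weights, without neuron-primed array 1, without mesenchyme-primed array 3 and without the 3 arrays of highest neural tube markers, where the number called was 1 in place of 0, and for the mean of the primed groups with array weights (adjusted p = 0.0327) and without neuron-primed array 1 (0.033). For neuron- against mesenchyme-primed arrays the count was 1 without glia-primed array 4 (Chd7) and 1 with every probe set as its own feature (Smarca2). Leaving out single arrays gave between 0 and 1 regulators called in these comparisons and 0 in the others. Centring on housekeeping genes moved the median differences to 0.073 (glia-primed) and 0.11 (neuron-primed), with those of all genes at 0.24 and 0.27. The distance between them could not change, because centring shifts every gene of an array alike. Among 2578 values of the 12 named regulators, 2571 kept their side of the threshold. The sign changed in 87, in 23 of 84 results, with an unadjusted p of at least 0.102 in the reported fit and 0.0934 under the alternative. Same-numbered arrays of different groups had correlations of deviations of -0.07 to 0.06, and 2 of 16 arrays correlated best with their own number. With the replicate block, 0 regulators were called, and the calls over all genes were 52 in place of 93 for glia-primed and 63 in place of 79 for neuron-primed arrays. It was 6 in place of 4 for mesenchyme-primed arrays and 39 in place of 81 for the mean of the primed groups. Leaving out single arrays moved these all-gene counts between 25 and 168 (glia-primed), 31 and 237 (neuron-primed), 0 and 3 (mesenchyme-primed) and 11 and 171 (mean). The other alternatives moved them between 26 and 149, 17 and 103, 0 and 9, and 6 and 136. Between primed groups all alternatives gave 0 to 7 (2 as reported), 14 to 68 (41) and 26 to 141 (63). Dim regulators (Tet1, Cbx8, Ezh1, Phf19) lie near the floor, where differences are compressed.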
